A study of Mus musculus with 9 samples.

Results

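SNARE genes encode the proteins that fuse transport vesicles with their target membranes, and 10 of them were followed here in mouse granulosa cells, the somatic cells around the oocyte, during the first hours after an ovulatory stimulus. They were Snap23, Snap25, Stx3, Stx7, Stx12, Vamp2, Vamp3, Vamp4, Vamp7 and Vamp8, found by gene symbol among 25059 gene identifiers, where they filled 24 of 54759 table rows per library. They were selected on their FPKM in these libraries, that is, as SNARE genes whose levels at the 3 times were already known. Their levels and changes are therefore given as a description, without p-values.

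The cells came from ovaries of Kunming mice, an outbred stock, at postnatal day 21. Follicle growth had been stimulated in every mouse with 5 IU of pregnant mare serum gonadotropin (PMSG) 48 h before hCG was due. The 0 h group had this priming and no hCG. The 1 h and 6 h groups had in addition 5 IU of human chorionic gonadotropin (hCG), an LH receptor agonist, given 1 h and 6 h before collection. Each group had 3 RNA-seq libraries, 9 in all. Whether the 3 libraries of a group came from separate animals or pools is not stated, so a p-value measures the spread between libraries, which may be technical. Granulosa cells without hCG at matched hours were not analysed here, and hCG cannot be told apart from time of day.

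A vesicle carries an R-SNARE, usually a VAMP, and the target membrane carries a syntaxin (Qa-SNARE) together with a SNAP25-type protein that brings the other 2 helices (Qbc-SNARE). The 4 helices zip into a bundle that pulls the membranes together, and NSF with its SNAP adaptors takes the bundle apart afterwards. SNAP25 is best known from neurons and endocrine cells, where it pairs with syntaxin 1A and VAMP2 in calcium-triggered secretion. In mouse granulosa cells it has been described as a target of the progesterone receptor after the LH surge and as part of cytokine release.

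Levels are FPKM, fragments per kilobase of transcript relative to all mapped fragments, summed over the rows of a gene. They were deposited without counts, so the sequencing depth is unknown. The FPKM of all genes summed to 491920 to 570986 per library, and 13587 to 13862 genes had 1 FPKM or more. Across genes, libraries of the same time correlated at 0.982 to 0.988 and libraries of different times at 0.874 to 0.972 (Pearson, log2 values). Markers of granulosa cells summed to 10329 to 10990 FPKM at 0 h, 10332 to 15547 at 1 h and 3962 to 4352 at 6 h. None of the 10 was below 1 FPKM in all 9 libraries, and 9 of them were called lower at 6 h than at 0 h (limma), as were 27.9% of all genes. In bulk RNA, fewer cells of a type and less RNA per cell cannot be told apart.

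Snap25 (ENSMUSG00000027273, mm10 chr2:136713453-136782428, plus strand) has 2 coding transcripts among the 3 that GENCODE M21 lists. Both have 8 exons and 618 coding bases. Of their internal exons, 5 are identical, and the transcripts differ in exon 5, one of a mutually exclusive pair known to be swapped between tissues and during brain development. The exon 5 pair is shown because Snap25 has 2 rows in the deposited tables, both of them occupied at 6 h. The bases are those of mm10, read 5′ to 3′ on the plus strand, with capitals at the 31 of 118 positions where the exons differ.
Upstream exon 5, chr2:136769743-136769860: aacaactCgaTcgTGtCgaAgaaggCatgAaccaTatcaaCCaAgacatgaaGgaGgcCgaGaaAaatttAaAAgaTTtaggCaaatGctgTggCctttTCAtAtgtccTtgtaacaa
Downstream exon 5, chr2:136770057-136770174: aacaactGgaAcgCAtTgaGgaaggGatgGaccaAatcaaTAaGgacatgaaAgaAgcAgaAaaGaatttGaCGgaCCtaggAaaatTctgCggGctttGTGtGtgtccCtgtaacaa
The coding transcripts with the downstream and the upstream exon also differ in length, at 2116 and 1014 bases. The deposited rows carry gene identifiers and no transcript names. Whether the rows of Snap25 differ in exon 5 or elsewhere is therefore not given.

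Snap25 was close to absent before and 1 h after hCG and was the second most abundant of the 10 genes at 6 h. At 0 h it had 0.0957 and 0.0604 FPKM in replicates 1 and 2 and was listed at 0 in replicate 3. At 1 h it had 0.195, 0.122 and 0.126 FPKM, and at 6 h 31.2, 28.7 and 32.4 FPKM. The 6 h libraries stood far above all 6 earlier ones, and the 1 h libraries lay just above the 0 h libraries at levels below 0.2 FPKM. The 6 h mean was 30.7 ± 1.87 FPKM and the 1 h mean 0.148 ± 0.0411 FPKM (SD, n = 3 each), a ratio of 208. On the log2(FPKM + 1) scale, which holds down the changes of genes near 0, the difference of 6 h from 0 h was 4.91 ± 0.10 and that of 6 h from 1 h was 4.79 ± 0.10 (± SE). With 0.1 in place of 1 as the pseudocount the differences were 7.72 and 6.97. Snap25 met the minimum level for testing, 1 FPKM in at least 3 libraries, only through the 6 h group.

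The 2 rows of Snap25 were both occupied at 6 h. The more abundant row had 24.4, 22.9 and 23.3 FPKM at 6 h, which was 78.4%, 79.7% and 72.1% of the gene. The other row had 6.75, 5.81 and 9.03 FPKM, or 23.4% of the gene when the 3 libraries are summed. Before 6 h the second row was listed at 0 in every library except 1 h replicate 2, where it held 0.0866 FPKM and the first row 0.0353 FPKM. The split between the rows at 6 h was thus close to the same in replicates 1 and 2 and less uneven in replicate 3.

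Snap23 (ENSMUSG00000027287, mm10 chr2:120567671-120601255, plus strand) encodes the widely expressed counterpart of SNAP25, which serves secretion in most non-neuronal cells. It had 17.6, 19 and 19.6 FPKM at 0 h, 19.4, 20.3 and 19.1 FPKM at 1 h, and 24, 24 and 24.9 FPKM at 6 h. All 3 libraries at 6 h lay above all earlier ones, while the 1 h and 0 h libraries overlapped. The mean was 24.3 ± 0.527 FPKM at 6 h and 18.7 ± 1.04 FPKM at 0 h (SD, n = 3 each), a ratio of 1.3. The log2 difference of 6 h from 0 h was 0.36 ± 0.07 (SE). Most of Snap23 lay in 1 of its 5 rows, which held 93.4% of the gene at 0 h, 90.8% at 1 h and 87.1% at 6 h.

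Within the SNAP family the makeup at 6 h was different. Snap25, Snap23, Snap29 and Snap47 together averaged 44.5 ± 1.3 FPKM at 0 h, 43.2 ± 0.76 FPKM at 1 h and 77.1 ± 3.52 FPKM at 6 h, with the SD of 3 libraries. Snap25 made up 0 to 0.222% of that sum at 0 h, 0.278 to 0.449% at 1 h and 39.2 to 40.4% at 6 h. Snap25 was thus the largest part of the family at 6 h, ahead of Snap23 in each library, with 1.3, 1.2 and 1.3 FPKM of Snap25 per FPKM of Snap23. Snap47, a family member without a membrane-anchoring cysteine cluster, made up 43.6% at 0 h, 40.4% at 1 h and 18% at 6 h on average. Its own level was also lower, 14.6, 12.2 and 14.9 FPKM at 6 h against 19.9, 18.6 and 19.8 FPKM at 0 h. Snap29, which acts in autophagosome fusion, had 8.02, 8.33 and 7.91 FPKM at 6 h against 5.7, 6.96 and 6.43 FPKM at 0 h. Snap29 and Snap47 were picked out here after their values were seen. Stacked by library, the SNAP family plot shows Snap25 filling the extra height of the 6 h bars.

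**Figure D1:**
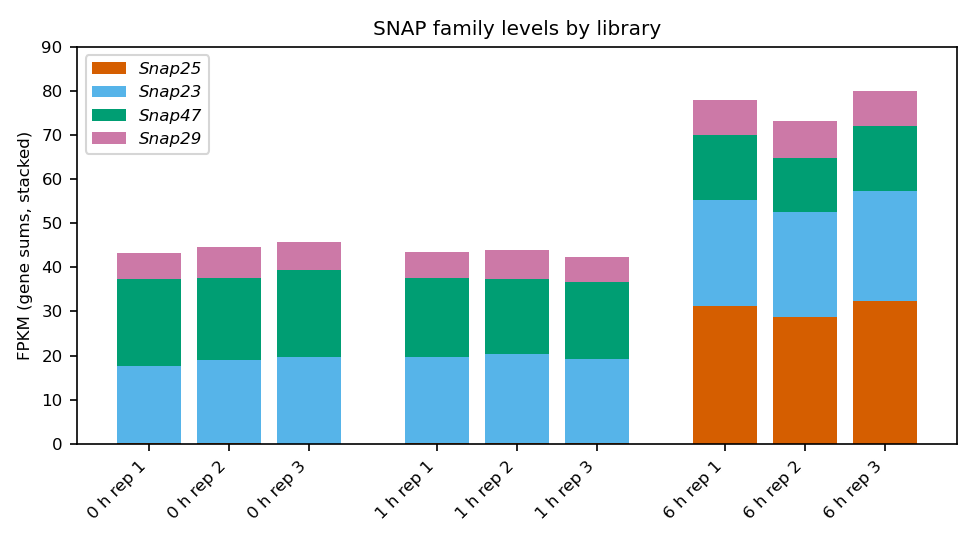
FPKM of the 4 SNAP family genes (y axis, gene sums stacked) in each of the 9 libraries (x axis, by time after hCG and replicate). The Snap25 block is not visible at 0 h and 1 h and makes up 39.2 to 40.4% of the bars at 6 h.

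Among the syntaxins, Stx3 (ENSMUSG00000041488, mm10 chr19:11775118-11819403, minus strand) stood apart. It encodes a plasma membrane Qa-SNARE that directs vesicles to the apical surface in epithelia. Stx3 had 2.27, 3.02 and 4.08 FPKM at 0 h, 2.84, 3.69 and 3.03 FPKM at 1 h, and 12.4, 15 and 13.2 FPKM at 6 h. The 0 h and 1 h libraries overlapped, and the 6 h libraries lay well above both. The mean was 13.5 ± 1.3 FPKM at 6 h and 3.12 ± 0.914 FPKM at 0 h (SD, n = 3 each), a ratio of 4.34. The log2 difference was 1.84 ± 0.16 for 6 h from 0 h and 1.80 ± 0.16 for 6 h from 1 h (SE).

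The 3 rows of Stx3 did not move alike. The most abundant row averaged 1.7 FPKM at 0 h, 1.94 at 1 h and 10.2 at 6 h. The second row had 2.79, 4.03 and 2.73 FPKM at 6 h, against values between 5.99e-05 and 1.23 FPKM at 0 h. Row 3 held 1.1, 0.000353 and 1.33 FPKM at 0 h and 0.539, 0.00257 and 0.000128 FPKM at 6 h. Summed over the 3 libraries of a time, row 3 held 1.33% of the gene at 6 h and 25.9% at 0 h. These lesser rows varied widely within a group, so their split is less certain than the sum of the gene.

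Other plasma membrane syntaxins give the scale of this difference. Stx1a, Stx2, Stx3 and Stx4a together averaged 43.1 ± 1.69 FPKM at 0 h, 41.1 ± 1.91 FPKM at 1 h and 65.5 ± 1.48 FPKM at 6 h, with the SD of 3 libraries. Stx3 made up 5.44 to 9.08% of this sum at 0 h, 7.25 to 8.66% at 1 h and 18.5 to 23.1% at 6 h. Stx4a, the broadly expressed syntaxin of constitutive and insulin-regulated exocytosis, was the most abundant of them, with 56.5% of the sum at 6 h and 64.9% at 0 h. Its own level was higher at 6 h, at 36.8, 35.3 and 38.8 FPKM against 25.8, 27.3 and 31 FPKM at 0 h. Stx1a, the partner of SNAP25 at synapses, was at 5.02, 6.48 and 4.53 FPKM at 0 h, 4.15, 5.23 and 4.09 at 1 h, and 6.65, 6.94 and 6.37 at 6 h. Stx1a and Stx4a were picked out here after their values were seen.

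Stx7 and Stx12 encode Qa-SNAREs of late endosomes and of early and recycling endosomes. Stx7 had 12.2, 11.6 and 13 FPKM at 0 h, 15.7, 13.3 and 13.9 at 1 h, and 16, 17 and 14.4 at 6 h. Its 1 h and 6 h libraries overlapped each other and all lay above the 0 h libraries. The log2 difference of 6 h from 0 h was 0.34 ± 0.09, and that of 1 h from 0 h was 0.20 ± 0.09 (SE). Stx12 had 24.7, 22.6 and 25.4 FPKM at 0 h, 24.3, 23.7 and 26.4 at 1 h, and 26.5, 29.8 and 27.4 at 6 h. Its 6 h libraries lay above the others by a narrow margin, with a log2 difference of 0.20 ± 0.08 from 0 h and 0.16 ± 0.08 from 1 h (SE). Both other scalings gave 0.10 for the difference from 0 h.

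**Figure D2:**
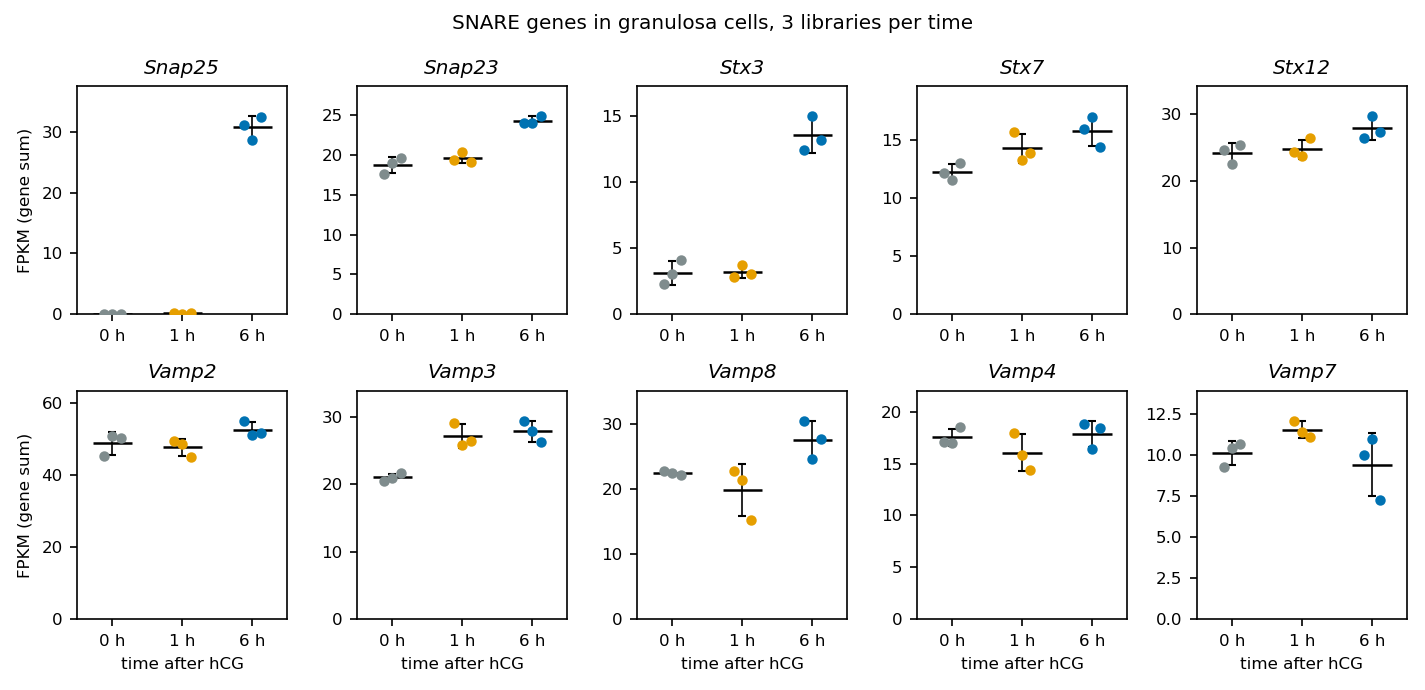
FPKM per gene (y axis, from 0, scaled per gene) at 0, 1 and 6 h after hCG (x axis). Points are libraries, bars are means and error bars are SD (n = 3). Snap25 and Stx3 show 6 h libraries far above the earlier ones, with 28.7 to 32.4 and 12.4 to 15 FPKM, while the other 8 genes change by less than 1.5 times in mean between any pair of times.

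Of the 5 R-SNAREs, Vamp2 was the most abundant at each time and changed little. Vamp2, or synaptobrevin 2, is the VAMP of synaptic and dense-core vesicles and of GLUT4 vesicles. It had 45.1, 50.8 and 50.3 FPKM at 0 h, 49.4, 48.5 and 44.8 at 1 h, and 55, 51 and 51.5 at 6 h. The 6 h libraries lay above the rest by a small margin. The log2 difference of 6 h from 0 h was 0.11 ± 0.07 (SE), and it was −0.02 after quantile normalization. The less abundant of its 2 rows carried the difference, with 23.5, 22 and 21.6 FPKM at 6 h against 15.7, 19.1 and 18.8 FPKM at 0 h. The more abundant row had 31.5, 29 and 29.8 FPKM at 6 h and 29.4, 31.7 and 31.5 FPKM at 0 h.

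**Figure D3:**
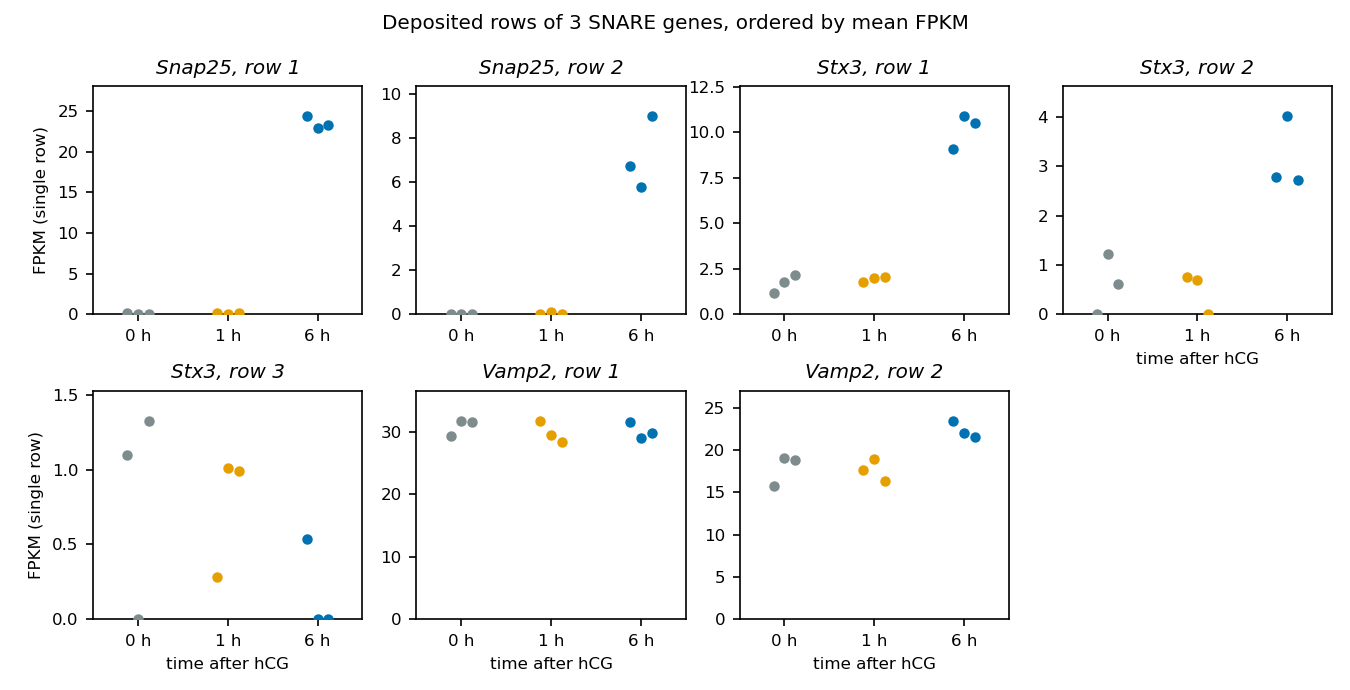
FPKM of single deposited rows (y axis, from 0) of Snap25, Stx3 and Vamp2 at 0, 1 and 6 h after hCG (x axis), with 1 point per library and rows numbered by mean level. Both Snap25 rows and the first 2 Stx3 rows are highest at 6 h, row 3 of Stx3 is not, and only the second Vamp2 row is separated at 6 h.

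Vamp3 had the largest difference in log2(FPKM + 1) of the 10 genes at 1 h against 0 h, a scale on which the fold of a gene as low as Snap25 is understated. It encodes cellubrevin, the VAMP of recycling endosomes and of constitutive delivery to the cell surface. It had 20.5, 20.9 and 21.6 FPKM at 0 h, 29.1, 25.8 and 26.4 at 1 h, and 29.4, 27.9 and 26.2 at 6 h. All libraries after hCG lay above the 0 h libraries, and the 1 h and 6 h libraries overlapped. The log2 difference was 0.35 ± 0.07 for 1 h from 0 h, 0.39 ± 0.07 for 6 h from 0 h and 0.04 ± 0.07 for 6 h from 1 h (SE). The FPKM sums of the 1 h libraries, 527034 to 570986, were also above those of the 0 h libraries, 491920 to 495500. Scaling each library to the mean sum moved the median of all genes by −0.14 at 1 h against 0 h and left 0.20 for Vamp3.

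Vamp8, or endobrevin, serves late endosomes and the release of granules from exocrine and blood cells. It had 22.7, 22.4 and 22.1 FPKM at 0 h, 22.7, 21.4 and 15.2 at 1 h, and 30.4, 24.6 and 27.7 at 6 h. The low replicate 3 at 1 h widened the spread of that group to ± 4.01 FPKM (SD, n = 3), against ± 0.318 at 0 h. All 6 h libraries lay above the earlier ones. The log2 difference of 6 h from 1 h was 0.47 ± 0.13 (SE), and 0.30 without 1 h replicate 3. The difference of 6 h from 0 h was 0.28 ± 0.13 (SE).

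Vamp4 and Vamp7 had overlapping libraries at 6 h and 0 h. Vamp4, the VAMP of the trans-Golgi network, had 17.1, 17 and 18.5 FPKM at 0 h, 18, 15.8 and 14.4 at 1 h, and 18.8, 16.4 and 18.4 at 6 h. All 3 groups overlapped, and the log2 difference of 6 h from 0 h was 0.03 ± 0.09 (SE). Vamp7, a longin-type VAMP of lysosome exocytosis, had 9.3, 10.4 and 10.7 FPKM at 0 h, 12.1, 11.4 and 11.1 at 1 h, and 9.99, 11 and 7.28 at 6 h. Its 6 h libraries lay below the 1 h libraries, with 1 of them well below the other two, and overlapped the 0 h libraries. The log2 difference of 6 h from 1 h was −0.28 ± 0.13 (SE). The 5 VAMP genes together averaged 120 ± 4.51 FPKM at 0 h, 122 ± 9.68 FPKM at 1 h and 135 ± 7.27 FPKM at 6 h (SD of 3 libraries), of which Vamp2 held 40.7%, 39% and 38.9% at the 3 times in that order.

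The order of the 10 genes by mean FPKM shifted with time mainly through Snap25 and Stx3. At 0 h it ran from Vamp2 through Stx12, Vamp8, Vamp3, Snap23, Vamp4, Stx7 and Vamp7 to Stx3 and Snap25. Only Stx12 and Vamp8, and Snap23 and Vamp4, overlapped as neighbours in that order. At 1 h Vamp3 stood second, overlapping Stx12, while Vamp8 overlapped Snap23, Vamp4 overlapped Stx7, and the last 4 places were unchanged. At 6 h Vamp2 was followed by Snap25, Stx12, Vamp3, Vamp8 and Snap23, each overlapping its neighbour, then by Vamp4, Stx7 and Stx3, which also overlapped in turn, and by Vamp7. The spread of the set thus narrowed at 6 h, when no member was below 7.28 FPKM in any library, whereas Snap25 was below 0.2 FPKM in all 6 earlier libraries.

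Across all 14535 genes tested (limma, Benjamini-Hochberg adjusted p below 0.05), 15.7% were called at 1 h against 0 h, 9.68% higher and 5.98% lower, and 1 of the 10 SNARE genes was called, Vamp3, which was higher. Between 6 h and 0 h, 56.6% of all genes were called, 28.8% higher and 27.9% lower. Of the 10 SNARE genes 6 were called higher there: Snap25, Snap23, Stx3, Stx7, Stx12 and Vamp3. Between 6 h and 1 h, 53.5% of all genes were called, 26.7% higher and 26.9% lower. There 4 of the 10 were called higher: Snap25, Snap23, Stx3 and Vamp8. Snap25 could be tested only through its 6 h libraries, so its calls at 6 h support nothing. None of the 10 was called lower by limma in these comparisons. The Stx12 call ended under 12 of 16 alternatives, among them the omission of any single 0 h library, of 1 h replicate 1 or of 6 h replicate 2 or 3. The Vamp3 call at 1 h ended after scaling to the mean FPKM sum, and the Vamp8 call ended without 6 h replicate 1, at a difference of 0.40. Vamp8 was called higher at 6 h than at 0 h without 1 h replicate 3 and with only the groups compared, and Vamp7 lower at 6 h than at 1 h without 6 h replicate 2, at −0.39. By library, 4 of the 10 had all 3 libraries at 1 h above those at 0 h, against 18.3% of all genes above, 17.2% below and 35.5% either way. All 3 libraries at 6 h lay above all 3 at 0 h for 8 of the 10 genes, against 32.9% of all genes above, 32.1% below and 64.9% either way. Against 1 h they lay above for 6 of the 10 and below for 1, Vamp7, against 30.5% of all genes above, 30% below and 60.5% either way. The median log2 difference of the 10 was 0.05 for 1 h from 0 h, 0.31 for 6 h from 0 h and 0.16 for 6 h from 1 h, against 0.00 over all genes in each comparison. Since the genes were picked with these values known, nothing is read from these counts. The 3 comparisons share their libraries in pairs, so their values are not independent of each other.

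The genes whose profile over the 9 libraries was nearest to that of Snap25 were Lepr, Rnf125, Alcam, Runx1 and Rhox8. Nearness was the root mean square difference of log2(FPKM + 1) values after subtraction of each gene's 0 h mean, and it was 0.181 for Lepr, 0.312 for Rnf125, 0.382 for Alcam, 0.425 for Runx1 and 0.435 for Rhox8. Lepr, the leptin receptor gene, had 0.637, 0.448 and 0.349 FPKM at 0 h, 0.524, 0.711 and 0.568 at 1 h, and 43.5, 57.6 and 47.8 at 6 h. Like Snap25 it was under 1 FPKM in all 6 earlier libraries. Runx1, a transcription factor gene, had a mean of 17.2 ± 3.81 FPKM at 0 h, 23.6 ± 4.37 FPKM at 1 h and 368 ± 22.3 FPKM at 6 h (SD of 3 libraries), so its level was above that of Snap25 throughout. Alcam, which encodes a cell adhesion molecule, averaged 186 ± 27.2 FPKM at 6 h against 7.41 ± 1.48 FPKM at 0 h (SD of 3 libraries).

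Because SNAP25 is a neuronal and endocrine protein, markers of cells that could bring it into the preparation were read beside it. The 10 neuronal markers summed to 23 to 26.7 FPKM at 0 h, 24.9 to 41.7 at 1 h and 15.9 to 24.8 at 6 h, and 5 of them were below 1 FPKM in all 9 libraries. Most of each sum came from Map2, with means of 16.1 FPKM at 0 h, 23 at 1 h and 13.3 at 6 h, and from Tubb3, with 4.29, 6.26 and 3.87. The sums thus mainly follow these genes. None of the 3 neuronal markers that could be tested was called higher at 6 h than at 0 h (limma). The other neuronal markers were too low to be tested. Syp, a synaptic vesicle protein gene, had 1.96, 0.916 and 1.12 FPKM at 0 h and 0.332, 0.247 and 0.325 at 6 h. It met the minimum for testing only through the 0 h and 1 h libraries, so its call as lower supports nothing. Among all genes, 28.8% were called higher and 27.9% lower in that comparison. Nefl and Nefm were singled out from these untested markers after their values were seen. The neurofilament gene Nefl had 0.103, 0.112 and 0.09 FPKM at 6 h and 0.019 FPKM or a listed 0 at 0 h. Nefm, another neurofilament gene, had 0.289, 0.478 and 0.365 FPKM at 6 h and 0.0183 FPKM or a listed 0 at 0 h. Both were below 0.5 FPKM throughout, and their 6 h libraries lay above those of 0 h. Rbfox3, a further untested neuronal marker, went the other way, with 0.435, 0.347 and 0.541 FPKM at 6 h against 1.06, 1.32 and 0.95 at 0 h. The 8 neuroendocrine markers summed to 7.14 to 9.25 FPKM at 0 h, 12.2 to 13 at 1 h and 11.6 to 13.2 at 6 h. Chga, the defining granin gene of such cells, was below 1 FPKM in all 9 libraries.

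Chgb and Scg2, which encode granins, cargo proteins of dense-core granules, had 6 h libraries above all 0 h libraries and were singled out from that list after their values were seen. Chgb had 0.645, 0.566 and 0.531 FPKM at 0 h, 5.37, 3.23 and 4.8 at 1 h, and 5.75, 5.7 and 6.25 at 6 h. As Chgb was chosen on these values, its log2 differences are a description. They were 1.77 for 1 h from 0 h, 2.13 for 6 h from 0 h and 0.36 for 6 h from 1 h. Scg2 had 0.173, 0.273 and 0.32 FPKM at 0 h, 0.0704, 0.128 and 0.189 at 1 h, and 1.88, 2.14 and 3.09 at 6 h. Like Snap25, Scg2 was abundant enough for testing only through the 6 h group, so its difference of 6 h from 0 h, 1.41 on the log2 scale and 2.79 with a pseudocount of 0.1, is given without a test. Scg5, a granule chaperone gene, fell by 0.92 on the log2 scale to 3.2, 2.65 and 2.57 FPKM at 6 h, against 5.61, 5.64 and 7.43 FPKM at 0 h (limma, adjusted p = 0.000245). These granule genes thus did not all move in 1 direction.

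Oocyte markers were higher at 6 h, and oocytes also hold SNAP25. The 10 markers summed to 41.4 to 65.8 FPKM at 0 h, 54.3 to 65 at 1 h and 74 to 111 at 6 h, and all 8 that could be tested were called higher at 6 h than at 0 h, beside 28.8% of all genes. Leaving out replicate 2 or 3 of 0 h, or replicate 3 of 6 h, ended the calls of Zp1, Zp2 and Dppa3 (limma, adjusted p between 0.0504 and 0.167 under such omissions). Those of Zp1 and Dppa3 also ended without 6 h replicate 2, and that of Zp1 without any single 1 h library. Zp3, which encodes an egg coat protein, had 11.4, 14.5 and 17.5 FPKM at 6 h against 9.24, 6.82 and 7.32 FPKM at 0 h. Endothelial markers summed to 16.7 to 24.2 FPKM at 0 h, 20 to 22.8 at 1 h and 25.7 to 33.3 at 6 h. Of these 6 markers, 3 were called higher at 6 h than at 0 h (limma), beside 28.8% of all genes. Leukocyte markers summed to 12 to 18.4 FPKM at 0 h, 14.8 to 17.6 at 1 h and 9.46 to 11.9 at 6 h. Theca and stroma markers summed to 192 to 304 FPKM at 0 h, 253 to 409 at 1 h and 105 to 131 at 6 h. A large part of that sum was Cyp17a1, with means of 123 FPKM at 0 h, 193 at 1 h and 21.9 at 6 h. Of these 8 markers, 3 were called lower at 6 h than at 0 h (limma), beside 27.9% of all genes. The part of these cells in the SNARE gene levels was not tested.

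The rest of the SNARE family was read for comparison. Of 26 further SNARE genes, 25 were abundant enough to test. Of these 25, 9 rose and 4 fell at 6 h against 0 h, with a median log2 difference of 0.16, against 28.8% of all genes called higher, 27.9% called lower and a median of 0.00. Without 6 h replicate 2, 6 rose and 2 fell. The genes with the largest changes were Stx11, a syntaxin of lytic granules in lymphocytes, Vti1b and Stx6, SNAREs of endosomes and the trans-Golgi network, and Vamp1, a synaptobrevin close to Vamp2.

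Vti1b had 20.3, 22.1 and 16.9 FPKM at 6 h against 12.6, 11.4 and 13.1 FPKM at 0 h. It rose by 0.63 ± 0.10 on the log2 scale (SE; limma, adjusted p = 0.000615). Stx11 was low throughout, with 3.4, 4.63 and 3.83 FPKM at 6 h against 2.63, 1.9 and 0.854 FPKM at 0 h, and rose by 0.87 ± 0.23 (SE; limma, adjusted p = 0.0082), or by 1.33 from its most abundant row alone. The libraries of both genes did not overlap between these times. Stx6 rose by 0.52 ± 0.11 to 18.9, 24.2 and 18.6 FPKM at 6 h, against 13.7, 12.9 and 15.5 FPKM at 0 h (SE; limma, adjusted p = 0.00292). Vamp1 had 12.2, 10.8 and 12.3 FPKM at 6 h against 7.91, 8.49 and 8.27 FPKM at 0 h, and rose by 0.47 ± 0.10 (SE; limma, adjusted p = 0.00284), or by 0.73 from its most abundant row alone.

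Between 6 h and 1 h, 13 of the 25 rose and 5 fell, with a median log2 difference of 0.19, against 26.7% of all genes called higher and 26.9% called lower. Vamp1 had the largest change, 0.83 ± 0.10 on the log2 scale (SE; limma, adjusted p = 9.8e-05), followed by Stx11 at 0.80, Vamp5 at 0.69 and Vti1b at 0.61. Vamp5, first described in muscle, had 7.88, 8.55 and 6.64 FPKM at 6 h against 6.29, 4.35 and 2.92 FPKM at 1 h (limma, adjusted p = 0.023). Leaving out replicate 2 or 3 of 1 h, or replicate 1 or 2 of 6 h, ended its call, with adjusted p from 0.0506 to 0.0763. From its most abundant row alone the adjusted p was 0.266. The Stx11 call (limma, adjusted p = 0.0138) ended without 6 h replicate 2, at 0.0545.

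At 1 h, 1 of the 25 rose and 1 fell against 0 h, with a median log2 difference of −0.06, where 9.68% of all genes were called higher and 5.98% lower. Stx5a, a syntaxin of the Golgi, had 67.2, 70.2 and 69.1 FPKM at 1 h against 55.2, 59.3 and 58 FPKM at 0 h, a log2 difference of 0.26 ± 0.06 (SE; limma, adjusted p = 0.0149). The call ended without 0 h replicate 1, at 0.0607, and under both other scalings, at 0.259 and 0.547. Vamp1 had 6.79, 6.54 and 5.33 FPKM at 1 h against 7.91, 8.49 and 8.27 FPKM at 0 h, a log2 difference of −0.36 ± 0.10 (SE; limma, adjusted p = 0.0387). Leaving out any single 0 h library, replicate 1 or 3 of 1 h or replicate 1 of 6 h ended that call, with adjusted p from 0.0509 to 0.119. It also ended with no filter, with only the groups compared, with the replicate block, and from the most abundant row alone, where the difference was −0.06 with an adjusted p of 0.844. The 2 calls came down to 0 without replicate 1 of 0 h, and to 1 without any of the other libraries just named.

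Proteins that chaperone, prime and take apart SNARE bundles formed a second list, with 27 genes of which 21 could be tested. At 6 h, 6 of them rose and 5 fell against 0 h, with a median log2 difference of −0.05. These shares of the 21 are near those of all genes, of which 28.8% were called higher and 27.9% lower. Without 0 h replicate 3, 5 rose and 2 fell. The largest rise was in Stxbp6, which encodes amisyn, a syntaxin-binding protein with an R-SNARE-like motif and no membrane anchor. It had 26.2, 25.6 and 31.9 FPKM at 0 h, 34.7, 35.8 and 17.5 at 1 h, and 80.4, 71.7 and 74.6 at 6 h. The 6 h libraries stood well above all earlier ones, and the log2 difference from 0 h was 1.41 ± 0.22 (SE; limma, adjusted p = 0.000468).

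Stxbp3, which encodes a syntaxin-binding protein of the Sec1/Munc18 family that works with syntaxin 4, rose by 0.41 ± 0.10 to 26.1, 24.9 and 21.6 FPKM at 6 h, against 16.4, 18.8 and 18.4 FPKM at 0 h (SE; limma, adjusted p = 0.00514). Snapin, a protein that binds SNAP25 and is a subunit of the BLOC-1 complex, changed the other way. It had 43.4, 35.9 and 43.6 FPKM at 0 h, 33.4, 31.6 and 29.7 at 1 h, and 22, 21.3 and 19.3 at 6 h, and fell by 0.94 on the log2 scale between 0 h and 6 h (limma, adjusted p = 1.76e-05).

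Against 1 h, 6 of the 21 rose and 3 fell at 6 h, with a median log2 difference of 0.16, where 26.7% of all genes were called higher and 26.9% lower. Stxbp6 rose by 1.40 ± 0.22 and Snapin fell by 0.57 on the log2 scale (SE; limma, adjusted p = 0.00057 and 0.000509 in that order). Napb, the neuronal form of the NSF adaptor, was called higher at a low level, with 1.52, 2.04 and 2.27 FPKM at 6 h against 0.961, 1.53 and 0.881 FPKM at 1 h (limma, adjusted p = 0.0265). These libraries overlapped, and leaving out replicate 1 or 3 of 1 h, or replicate 2 or 3 of 6 h, ended the call, with adjusted p from 0.0815 to 0.0961. Its log2 difference was 0.47, and 0.76 with a pseudocount of 0.1.

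At 1 h, 2 of the 21 rose and 4 fell against 0 h, with a median log2 difference of −0.01, where 9.68% of all genes were called higher and 5.98% lower. Napa, the common NSF adaptor, rose, with 42.9, 36.7 and 46.7 FPKM at 1 h against 29.8, 29.8 and 30.6 FPKM at 0 h. Its log2 difference was 0.47 ± 0.08 (SE; limma, adjusted p = 0.00555), or 0.31 after scaling to the mean FPKM sum, and at 6 h it had 31.5, 33.2 and 33.7 FPKM. The 1 h calls of Napb (−0.53, and −0.84 with a pseudocount of 0.1) and Vps33a (−0.39, a subunit of the endosomal tethering complexes) had adjusted p of 0.0451 and 0.0277 by limma. Leaving out any 0 h library or replicate 1 or 3 of 1 h ended each of these, and leaving out replicate 2 or 3 of 6 h also ended that of Napb, with adjusted p up to 0.146. The 6 calls of the list came down to 1 without replicate 1 or 3 of 0 h or replicate 3 of 1 h, to 2 without replicate 1 of 1 h and to 3 without replicate 2 of 0 h.

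Calcium sensors and Rab effectors, which decide when and where a docked vesicle fuses, made up a further list. Only 15 of its 36 genes could be tested. Syt1, the fast calcium sensor of synapses, was among those too low, at 0.0163 to 0.276 FPKM over the 9 libraries, and was singled out after its values were seen. For 6 h against 0 h, 5 of the 15 rose and 6 fell, with a median log2 difference of −0.16, where 28.8% of all genes were called higher and 27.9% lower. Against 1 h instead of 0 h, 3 rose and 5 fell, with a median of −0.18, beside 26.7% of all genes called higher and 26.9% lower. At 1 h against 0 h, 3 rose and none was called lower by limma, with a median of 0.01, beside 9.68% of all genes called higher and 5.98% lower.

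The falls included the most abundant genes of this list at 0 h. Sytl4 encodes granuphilin, a Rab27 effector that docks insulin granules in beta cells. It had 89.3, 83.5 and 99.6 FPKM at 0 h, 69.2, 70.1 and 77.4 at 1 h, and 19.5, 18.7 and 23.5 at 6 h. The log2 difference of 1 h from 0 h was −0.32 and just missed the threshold (limma, adjusted p = 0.0504). It was called lower after scaling to the mean FPKM sum, at −0.48, and after quantile normalization, at −0.55. The same held with the replicate block, with only the groups compared and without 6 h replicate 3. Syt7, a sensor of slow calcium-triggered and lysosomal exocytosis, had 40.8, 52.4 and 52.1 FPKM at 0 h, 44.2, 43.4 and 59.8 at 1 h, and 11.3, 10.9 and 13.1 at 6 h. Neither gene's 6 h libraries came near the earlier ones. Between 0 h and 6 h Sytl4 fell by 2.09 and Syt7 fell by 1.95 on the log2 scale (limma, adjusted p = 1.87e-07 and 2.62e-06 in that order). Rab27a, the GTPase that Sytl proteins bind, had 9.01, 6.4 and 5.3 FPKM at 6 h against 16.5, 13.2 and 9.52 FPKM at 1 h, and fell by 0.83 on the log2 scale (limma, adjusted p = 0.0129).

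Syt12, Sytl3 and Rims4 were called higher at 1 h as well as at 6 h against 0 h. Syt12, a synaptotagmin that does not bind calcium, had 1.73, 2.01 and 1.3 FPKM at 0 h, 6.05, 5.32 and 7.1 at 1 h, and 5.81, 6.44 and 6.66 at 6 h. Its log2 difference of 1 h from 0 h was 1.42 ± 0.13 (SE; limma, adjusted p = 0.000101). Sytl3, another Rab27 effector, had 2.69, 2.1 and 1.19 FPKM at 0 h, 7.07, 3.61 and 9.82 at 1 h, and 9.41, 9.8 and 10.6 at 6 h. It rose by 1.34 ± 0.28 at 1 h and by 1.90 ± 0.28 at 6 h on the log2 scale (SE; limma, adjusted p = 0.0125 and 0.000322), the second of which was 1.08 from its most abundant row alone. Rims4, a short relative of the RIM proteins that organise release sites, had 12.5, 14.7 and 10.3 FPKM at 0 h, 20.3, 19.7 and 17.1 at 1 h, and 51.1, 45.8 and 44.9 at 6 h. It rose by 0.58 ± 0.12 at 1 h and by 1.85 ± 0.12 at 6 h (SE; limma, adjusted p = 0.0112 and 1.38e-06). Set against 1 h, the log2 differences at 6 h were 1.27 for Rims4, −1.77 for Sytl4 and −1.96 for Syt7 (limma, adjusted p = 1.87e-05, 6.51e-07 and 3.02e-06).

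**Figure D4:**
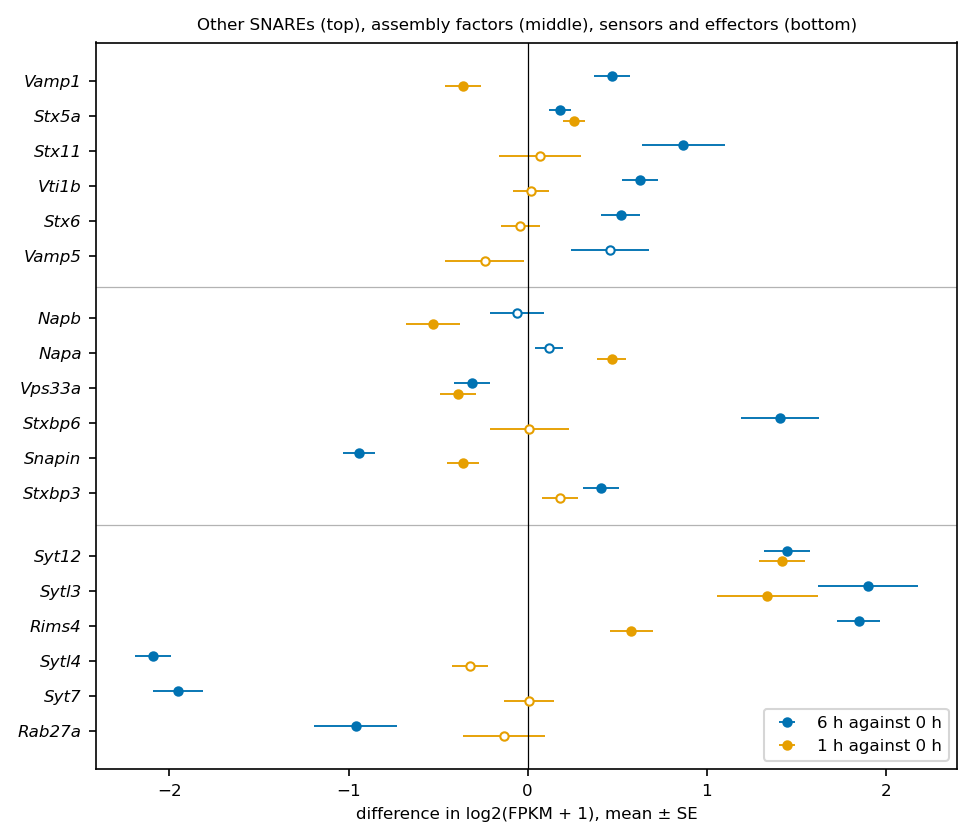
Differences in log2(FPKM + 1) with SE (x axis) for the named genes of the 3 lists of SNARE partners (y axis), 6 h against 0 h in blue and 1 h against 0 h in orange; filled points passed the test. Sytl4 and Syt7 lie furthest to the left at 6 h, at −2.09 and −1.95, and Sytl3 and Rims4 furthest to the right, at 1.90 and 1.85.

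The exocyst, the complex that tethers vesicles to the plasma membrane before SNAREs engage, was read next, and all 9 of its subunit genes could be tested. For 6 h against 0 h, 4 rose and 2 fell, with a median log2 difference of 0.10, beside 28.8% of all genes called higher and 27.9% lower. For 6 h against 1 h, 2 rose and 2 fell, with a median of 0.14, which is near the 26.7% of all genes called higher and 26.9% lower. Exoc1 had 30.4, 26.5 and 26.3 FPKM at 6 h against 20.4, 19 and 19.6 FPKM at 0 h (log2 difference 0.47 ± 0.09, SE; limma, adjusted p = 0.0011). Exoc4 had 22.2, 21 and 24.8 FPKM at 6 h against 30.1, 30.3 and 33 FPKM at 0 h (log2 difference −0.44 ± 0.08, SE; limma, adjusted p = 0.00117). From the most abundant row of each gene alone neither passed, with adjusted p of 0.232 for Exoc1 and 0.517 for Exoc4. Exoc6 fell by 0.44 on the log2 scale to 3.43, 3.23 and 3.07 FPKM at 6 h, against 5.04, 4.51 and 4.68 FPKM at 0 h (limma, adjusted p = 0.00302). Against 1 h the log2 differences at 6 h were 0.60 for Exoc1, −0.46 for Exoc4 and −0.27 for Exoc6 (limma, adjusted p = 0.000292, 0.00108 and 0.0325). The Exoc4 value was −0.01 from its most abundant row alone, with an adjusted p of 0.957, and leaving out any 1 h library or replicate 2 or 3 of 6 h ended the Exoc6 call, with adjusted p from 0.0501 to 0.0907.

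Exoc8 was the 1 subunit called at 1 h, where 1 of the 9 fell, with a median log2 difference of −0.13, beside 5.98% of all genes called lower. It had 4.98, 5.17 and 4.73 FPKM at 0 h, 3.52, 3.92 and 2.91 at 1 h, and 6.11, 6.98 and 6.25 at 6 h, with no overlap between times. The difference of 6 h from 1 h was 0.75 ± 0.11 on the log2 scale (SE; limma, adjusted p = 0.000314). The differences from 0 h were smaller, −0.43 at 1 h and 0.32 at 6 h (limma, adjusted p = 0.0271 and 0.0289). Both calls ended without any single 0 h library, that at 1 h also without 1 h replicate 1 or 3 and that at 6 h without 6 h replicate 2 or 3, with adjusted p from 0.0505 to 0.102.

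SNAP25 has no transmembrane segment and is held at the membrane by palmitate added by DHHC enzymes, of which Zdhhc3, Zdhhc7, Zdhhc15 and Zdhhc17 are known to act on it. None of the 4 was called at 1 h against 0 h (limma), where 15.7% of all genes were called. Of the 4, 1 had an unadjusted p below 0.05 there. Zdhhc15 was low and fell by 0.78 on the log2 scale to 0.4, 0.294 and 0.429 FPKM at 6 h, against 1.38, 1.17 and 1.55 FPKM at 0 h (limma, adjusted p = 0.00037). It met the minimum for testing only through its 0 h and 1 h libraries, so its calls at 6 h support nothing. Zdhhc17 was also called lower at 6 h than at 0 h, by a log2 difference of −0.29 (limma, adjusted p = 0.029). Of all genes, 27.9% were called lower in that comparison. The libraries of Zdhhc17 came up against each other at 19 FPKM, and leaving out replicate 2 or 3 of either time ended the call, with adjusted p from 0.0726 to 0.104. Against 1 h, 2 of the 4 fell and 2 rose at 6 h, where 26.7% of all genes were called higher and 26.9% lower. Zdhhc15 fell by 0.63 and Zdhhc17 fell by 0.30 on the log2 scale (limma, adjusted p = 0.00157 and 0.0276). With a pseudocount of 0.1 the Zdhhc15 differences were −1.63 from 0 h and −1.39 from 1 h. The Zdhhc17 difference from 1 h was −0.46 from its most abundant row alone, and leaving out replicate 1 or 3 of 1 h, or replicate 2 or 3 of 6 h, ended that call, with adjusted p from 0.0676 to 0.0996. Zdhhc3 rose by 0.48 ± 0.11 to 13.9, 11.1 and 12.1 FPKM at 6 h, and Zdhhc7 by 0.33 ± 0.08 to 15.4, 14.8 and 13.1 FPKM (SE; limma, adjusted p = 0.00528 and 0.00724). Neither of these 2 was called for 6 h against 0 h. Zdhhc3 just missed the threshold there, at 0.28 (limma, adjusted p = 0.0526). It was called higher with the replicate block and with only the groups compared. The same held without 0 h replicate 1, 1 h replicate 1 or 2, or 6 h replicate 2.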

How the data were processed

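The authors deposited 1 table of FPKM values per library, per the file headers, with gene identifiers and symbols and 54759 rows each. Per the labels' protocols, Trizol RNA went into Illumina TruSeq RNA libraries. The submitters' processing notes name HISAT2 2.0.5 and mm10. Not given in the sources used here are the program behind the FPKM, its annotation, its filters and whether it used strand. Between 9364 and 9682 rows per library lie above 0 and below 0.001 FPKM, so values are not whole reads and no counts were recovered; depth is unknown.

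Rows were summed per gene identifier. Values were analysed as log2(FPKM + 1) in limma 3.58.1 (R 4.3.3) with a trended prior and 3 group means over all 9 libraries (6 residual degrees of freedom). Genes needed 1 FPKM in 3 libraries to be tested, which 14535 of 25059 reached, with Benjamini-Hochberg adjustment over all of them and a threshold of 0.05. The test was checked on simulated data. All 10 SNARE genes were tested, 9 of them with 1 FPKM or more in all 9 libraries. Libraries were placed in groups by their titles.

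The 10 genes, the lists of partner genes and the marker lists were chosen with earlier results of these data known. From each list and comparison, up to 4 called genes with the largest absolute log2 difference and at least 1 FPKM in the higher group mean were named. Some genes of these lists are counted but not reported here by name. Genes named outside this rule are said to be so or belong to the marker lists. The 5 nearest profiles to Snap25 exclude predicted and clone names. Coordinates and exons come from GENCODE M21 on mm10, where the identifier of Vamp7 was not matched. Alternatives were a pseudocount of 0.1, no filter, the most abundant row per gene, scaling to the mean FPKM sum, quantile normalization, only the groups compared, the replicate number as a block, and leaving out each library.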

Additional observations from a re-analysis of the deposited data

How the results depend on the processing

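Of 471 recomputed log2 differences of the 10 SNARE genes, 438 moved by less than the spread between replicates, 33 moved further, and none that had been called changed sign. Without any 1 of the 6 h libraries Snap25 fell under the minimum for testing and has no value. Depth is unknown, which limits statements on genes near 0 FPKM, Snap25 before 6 h among them. Between 0 h and 1 h, 2276 genes were called as reported, and 3636 after scaling to the mean FPKM sum (1002 higher, 2634 lower, against 1407 higher and 869 lower). The further SNARE genes called at 1 h against 0 h numbered 2 as reported, 5 after that scaling, and 1 each with no filter, with quantile normalization, with only the groups compared and with the replicate block. The assembly factors called at 1 h numbered 6 as reported and 3 with only the groups compared. The sensors and effectors called between 1 h and 6 h numbered 8 as reported and 15 with no filter, which tests more of them. The cause of the other shifts was not tested.

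Leaving out 1 library at a time gave 1199 to 2824 genes called at 1 h against 0 h, 6863 to 8406 at 6 h against 0 h and 6374 to 7703 at 6 h against 1 h. In the same 3 comparisons it gave 0 to 2, 8 to 13 and 13 to 18 further SNARE genes. It gave 1 to 6, 7 to 11 and 6 to 11 assembly factors, and 3 to 4, 8 to 11 and 8 to 10 sensors and effectors. Same-numbered libraries of different times correlated at −0.0783 to 0.147 in their deviations from the group means. Differently numbered ones correlated at −0.151 to 0.0861. The ranges overlapped, but most same-numbered values were above 0, while the differently numbered ones lay on both sides of 0. Whether the numbers pair the libraries was not tested. With the replicate block, 5 of the 10 SNARE genes were called higher at 6 h than at 0 h instead of 6.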

Other observations

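The rows of Vamp4 exchanged places in a single library. Its second row held 0.00085 FPKM in 1 h replicate 3 and 3.56 to 4.84 FPKM in the other 8 libraries. Its row 3 held 3.23 FPKM in that library and between 0.000197 and 0.0419 FPKM in the others. The sum of the gene there, 14.4 FPKM, lay to 22.4% in row 3.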
